A study of Mus musculus with 18 samples.

Results

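The genes described here are 10 genes of the goblet cell mucus programme, named by symbol: Muc2, Tff3, Clca1, Fcgbp, Zg16, Agr2, Spdef, Atoh1, Bcas1 and Muc4. All 10 were found among the 16321 genes of the gene tables. They were measured by bulk RNA sequencing in 18 distal colon samples from BALB/c mice, 3 mice in each of 6 groups. Il10KO mice, which lack the anti-inflammatory cytokine interleukin 10, were sampled at 6, 8, 10, 12 and 14 weeks of age, and wild-type mice at 6 weeks. Age follows W in group names, as in Il10KO W10. No wild-type group of a later age was analysed, so age and progression of colitis cannot be told apart in the Il10KO mice. All WT mice came from cage G and no Il10KO mouse did, so cage and genotype cannot be told apart either. Each sample was a piece of whole colon wall, in which fewer goblet cells and less RNA per goblet cell cannot be told apart.

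Goblet cells of the colon's surface and crypts hold granules of mucin. On release, the mucin swells into the gel that keeps bacteria off the epithelium. The main gel polymer is Muc2. Agr2, a protein disulfide isomerase of the endoplasmic reticulum, is needed for Muc2 to be made in mice. Fcgbp (IgG Fc-binding protein), Clca1 (a metalloprotease that processes Muc2), Zg16 (a lectin that binds Gram-positive bacteria) and Tff3 (a trefoil peptide that aids epithelial repair) are secreted with Muc2. The transcription factor Atoh1 commits crypt cells to the secretory lineage and Spdef, an ETS factor, acts in their maturation to goblet cells. Muc4 is a membrane-bound mucin. Bcas1 is best known from myelinating oligodendrocytes and is listed here among goblet cell transcripts. In Il10KO mice, loss of interleukin 10 signalling is followed by colitis, in which loss of goblet cells is a common histological sign.

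The members lie on 7 chromosomes (GENCODE vM21, GRCm38). Muc2, Fcgbp and Zg16 are on chromosome 7, at chr7:141690340-141754693, chr7:28071236-28120862 and chr7:127050156-127087328. Tff3 and Spdef are on chromosome 17, at chr17:31125306-31129646 and chr17:27714352-27728955. Clca1 lies at chr3:145003817-145032776, Agr2 at chr12:35992907-36004087, Atoh1 at chr6:64729125-64731245, Bcas1 at chr2:170346991-170427845 and Muc4 at chr16:32735886-32782391. Their transcripts differ widely in length. Weighted by abundance, length was 493 bases for Tff3, 674 for Zg16 and 784 for Agr2, against 1862 for Spdef, 2121 for Atoh1, 2724 for Muc2, 2922 for Bcas1, 3655 for Clca1, 7278 for Fcgbp and 8334 for Muc4.

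RefSeq promoter windows (GRCm38.p6, from 250 bases before to 50 after the start site) were at hand for 6 of the 10 members: Muc2, Fcgbp, Agr2, Spdef, Atoh1 and Muc4. They were searched on both strands for CAGCTG, an E-box of the kind that Atoh1 and other basic helix-loop-helix factors bind, for CCGGAT, an ETS core as bound by Spdef-type factors, and for TGTTTAC, a forkhead core as bound by Foxa factors. These motifs do not overlap each other. CAGCTG was found in Muc2 and Fcgbp, which are shown because both are secreted gel components and carry the letters of an Atoh1-type site. It starts 112 bases before the Muc2 start site and 208 bases before that of Fcgbp, and is in capitals. Among all 32851 promoter windows, 16.3% hold it. Neither CCGGAT, held by 6.0% of all windows, nor TGTTTAC, held by 3.6%, was in the 6 member windows. The windows are on the plus strand at chr7:141690090-141690389 for Muc2 and chr7:28070986-28071285 for Fcgbp.
Muc2: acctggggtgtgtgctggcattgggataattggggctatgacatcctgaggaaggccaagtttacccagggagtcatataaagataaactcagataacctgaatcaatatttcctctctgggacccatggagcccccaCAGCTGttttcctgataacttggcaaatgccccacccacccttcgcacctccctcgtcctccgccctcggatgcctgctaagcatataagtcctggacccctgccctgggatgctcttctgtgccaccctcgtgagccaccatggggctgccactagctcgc
Fcgbp: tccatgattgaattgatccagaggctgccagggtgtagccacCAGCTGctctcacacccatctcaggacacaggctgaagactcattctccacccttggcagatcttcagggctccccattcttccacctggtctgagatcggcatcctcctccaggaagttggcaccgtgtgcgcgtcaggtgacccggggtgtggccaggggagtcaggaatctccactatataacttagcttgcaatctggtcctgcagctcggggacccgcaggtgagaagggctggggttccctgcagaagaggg
A match gives letters only, and no binding was measured.

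Libraries held 26495521 to 35497101 estimated counts. The RNA integrity number (RIN) was 8.4 to 9.3 in 16 libraries, and 6.5 and 5.8 in replicates 2 and 3 of Il10KO W14. Il10 itself had 0 estimated counts in every Il10KO library and 0 to 3 in WT libraries, too few to check the genotype labels. Within Il10KO W14, replicate 1 stood apart: on the counts-per-million (CPM) scale, the summed level of 14 neutrophil markers was 564 CPM in it, against 17230 and 12140 CPM in replicates 2 and 3 and 295 to 329 CPM in Il10KO W6. Ly6g and Cd177 gave most of the W6 sum (153.9 to 193.8 and 103.4 to 147.7 CPM), so the sum is a level of these transcripts and no count of neutrophils. S100a8, a calprotectin subunit, had 0.16, 9273 and 5436 CPM in W14, against 0.09 to 0.18 CPM in W6. Replicate 1 of Il10KO W10 had 6345 CPM of these markers, and replicates 2 and 3 had 1333 and 1179 CPM, of which S100a8 gave 80.4 and 10.8 CPM, against 2983 CPM in replicate 1. Counts also shifted with transcript length. Relative to Il10KO W6, among genes with a mean log2 CPM over 1, the median log2 change of the 899 of up to 1000 bases was 2.09 at W14 and 0.95 at W10, and that of the 3616 over 4000 bases was -0.88 at W14 and -0.52 at W10. By library, the short class stood highest in Il10KO W14 replicates 2 and 3 (2.74 and 2.35, against 0.16 in replicate 1) and between 0.37 and 1.30 at W10 and W12. At W8 it stood at -0.13, 0.64 and 0.15 in replicates 1 to 3. Estimated fragment length was alike, 290.4 to 309.7 bases. Results for W10 and W14 are therefore given also with each library's length trend removed, and without these libraries.

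At 6 weeks, the levels of the 10 genes spanned several orders of magnitude. On the transcripts-per-million (TPM) scale, which accounts for length, Il10KO W6 colon held 10290 ± 231 TPM of Zg16 and 6172 ± 155 of Tff3 (mean ± SD, n = 3, as for all group values here). Clca1 followed at 1810 ± 260 TPM and Agr2 at 1545 ± 220, whose ranges overlapped (1514 to 2002 and 1292 to 1683 TPM). Fcgbp stood at 505 ± 66 TPM, Muc2 at 110.6 ± 33.6, Bcas1 at 62.5 ± 4.7 and Atoh1 at 49.1 ± 3.4. Spdef, at 27.9 ± 3.2, and Muc4, at 2.42 ± 0.74, were lowest. The TPM of Muc2 is no measure of its whole message, since its 8 GENCODE models are fragments of at most 2926 bases and none spans the gene. Of the summed TPM of all genes, the 10 members made up 2.03% to 2.14% at Il10KO W6 and 2.06% to 2.26% at WT W6.

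Between Il10KO W6 and WT W6 colon, no difference in the 10 genes passed the test. This comparison bears on the mucus programme at the earliest age sampled. Lipocalin, used as a marker of gut inflammation, was then 2.27 to 4.72 ng/g in Il10KO mice. It was 0.592 ng/g in WT replicate 1, and WT replicates 2 and 3 had no value. No member was called (edgeR's quasi-likelihood test on counts, Benjamini-Hochberg adjusted p under 0.05, as for all tests unless named), with 0% of all 16300 genes called, 0 members and 0.155% of genes called by DESeq2, and 394 genes at an unadjusted p under 0.05, none of them a member. Agr2 had 442.1, 608.5 and 583.6 CPM in Il10KO W6 libraries and 342.3, 416.3 and 413.7 CPM in WT W6 libraries. These ranges did not overlap, yet the log2 change of 0.48 ± 0.60 (SE) had an adjusted p of 1.0 in edgeR. Fcgbp had 2009, 2230 and 1853 CPM in Il10KO W6 and 2127, 2333 and 3091 CPM in WT W6, a log2 change of -0.31 ± 0.75. Spdef was also higher, and Zg16 and Bcas1 lower, in every Il10KO W6 library than in any WT W6 library. These were 4 of 10 members without overlap, beside 25.4% of all genes. Log2 changes of the members other than Agr2 and Fcgbp lay between -0.23 ± 0.50 for Bcas1 and 0.29 ± 0.36 for Atoh1.

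**Figure D1:**
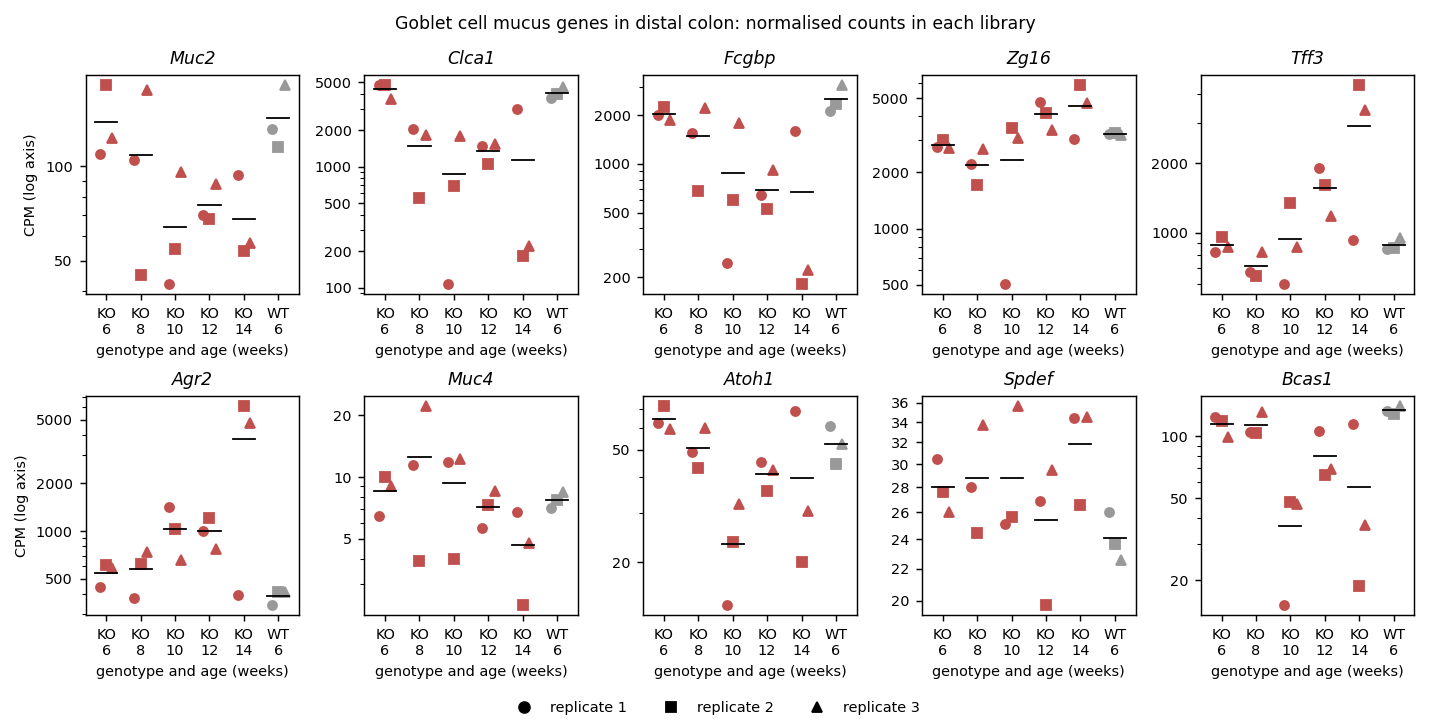
Normalised counts (CPM, log axes) of the 10 mucus genes in each library, by genotype (KO, Il10KO; WT, wild type) and age in weeks. Each symbol is 1 library, its shape the replicate number and the bar the mean of 3. Clca1, Fcgbp, Muc2, Atoh1 and Bcas1 are lowest in replicate 1 of week 10 or replicate 2 of week 14. Agr2 and Tff3 are highest in replicates 2 and 3 of week 14, while Tff3 is lowest in replicate 1 of week 10. Replicate 1 of week 14 lies near week 6.

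At 8 weeks, the clearest shift in level was in the Muc2 protease Clca1. It had 2049, 551.9 and 1815 CPM in Il10KO W8, against 4746, 4776 and 3590 CPM in Il10KO W6. All 3 older mice lay below all 3 younger ones. The log2 change of -1.57 ± 0.95 did not pass (edgeR adjusted p = 0.79). No member passed at W8, when 0.0675% of genes were called (11 genes, all higher) and 1146 had an unadjusted p under 0.05. DESeq2 called 0 members and 1.42% of genes. Zg16 and Tff3 were also lower in every Il10KO W8 library than in any W6 library, at 1712 to 2662 against 2695 to 2982 CPM for Zg16 and 646.3 to 822.5 against 828.2 to 953.7 CPM for Tff3, with log2 changes of -0.35 ± 0.47 and -0.31 ± 0.42. With Clca1, 3 of 10 members did not overlap between W8 and W6, beside 23.9% of all genes. Bcas1 had 104.4, 104.2 and 130.5 CPM in Il10KO W8, close to the 124.3, 118.6 and 99.3 CPM of W6. Replicate 2 of W8 had the lowest count of Muc2, at 45.2 CPM against 104.9 and 175.1 CPM in the other 2, and of Fcgbp, at 677.7 against 1554 and 2227 CPM. That library also carried the length trend. Its median shift from W6 was 0.64 for genes of up to 1000 bases and -0.41 for those over 4000 bases. The part of the trend in these 2 counts was not tested.

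At 10 weeks, Atoh1 and Bcas1 fell. Atoh1, the secretory commitment factor, had 14.1, 23.5 and 32.1 CPM in Il10KO W10, against 62.1, 71.8 and 59.5 CPM in Il10KO W6. Every W10 library lay below every W6 library. The log2 change was -1.47 ± 0.37 (edgeR adjusted p = 0.016). Bcas1 had 15.2, 47.9 and 46.8 CPM in Il10KO W10, against 124.3, 118.6 and 99.3 CPM in W6, again without overlap. Its log2 change was -1.64 ± 0.51 (edgeR adjusted p = 0.035). These 2 of 10 members, both lower, compare with 24.0% of all genes called in either direction and 9.48% called lower. The CPM ranges of 6 members did not overlap between W10 and W6, 5 lower and Agr2 higher, beside 57.8% of all genes. The median log2 change was -0.68 over the 10 members and 0.02 over all genes.

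Among the secreted members at 10 weeks, Clca1 had the lowest log2 change, -2.34 ± 0.97 (edgeR adjusted p = 0.081). Its counts were 107.0, 685.0 and 1798 CPM in Il10KO W10, against 3590 to 4776 CPM in W6, with no overlap. Muc2 had 42.2, 54.6 and 96.1 CPM in W10 against 109.3, 182.3 and 123.6 CPM in W6, also without overlap, and a log2 change of -1.10 ± 0.42 (edgeR adjusted p = 0.063). Fcgbp had 243.6, 602.1 and 1792 CPM in W10 against 1853 to 2230 CPM in W6 (log2 change -1.21 ± 0.76). Zg16 had 505.5 CPM in replicate 1 of W10 but 3466 and 3062 CPM in the other 2, against 2695 to 2982 CPM in W6. Its log2 change of -0.26 ± 0.47 became 0.22 without replicate 1. Tff3 ranged from 599.6 to 1350 CPM in W10, around its W6 range, with a log2 change of 0.09 ± 0.42. Agr2 was higher in each W10 library than in any W6 library, at 1415, 1034 and 658.1 CPM against 442.1, 608.5 and 583.6 CPM, with a log2 change of 0.93 ± 0.61 (edgeR adjusted p = 0.24). Spdef, which acts after Atoh1, had 25.1, 25.6 and 35.7 CPM in W10 and 30.4, 27.6 and 26.0 CPM in W6. Its log2 change was 0.04 ± 0.21 on counts and -0.60 on the log2(TPM + 1) scale, where the median of all genes was -0.34. Muc4 was low throughout, at 4.0 to 12.3 CPM in W10 and 6.5 to 10.1 CPM in W6.

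The count of called members at 10 weeks depended on single libraries. It was 0 without W10 replicate 1, 1 without replicate 2 and 5 without replicate 3, in fits that called 6.68%, 11.2% and 32.1% of all genes. It was 0 without W6 replicate 1, 0 without W6 replicate 2 and 1 without W6 replicate 3, in fits that called 4.70%, 6.09% and 6.76%. Atoh1 kept a log2 change between -1.21 and -1.78 in these 6 fits. With the length trend removed, 4 members were lower: Atoh1 at -1.72 ± 0.44 (edgeR adjusted p = 0.013), Bcas1 at -1.66 ± 0.46 (0.019), Muc2 at -1.18 ± 0.41 (0.040) and Tff3 at -0.92 ± 0.29 (0.030), while 30.0% of all genes were called. The length used for Muc2, 2724 bases, is that of its fragment models and not of its whole message. This fit may therefore not remove the whole trend from Muc2. Without the low-RIN W14 libraries, which are in neither compared group, 5 were called at W10, 4 lower (Muc2, Clca1, Atoh1 and Bcas1) and Agr2 higher at 0.86 (edgeR adjusted p = 0.021), with 51.4% of all genes called. The limma fit on log2(TPM + 1) called Muc2, Clca1, Atoh1 and Bcas1, all lower, and 19.9% of all genes. With cage as a factor, no member and 3.26% of all genes were called. In the 2 cages with both ages, cage B (W10 replicate 1, W6 replicate 2) gave a log2 CPM difference of -2.34 for Atoh1 and -2.96 for Bcas1, and cage F (W10 replicate 3, W6 replicate 3) gave -0.89 and -1.08.

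At 12 weeks, members lay on both sides of their W6 levels. Clca1 had 1476, 1057 and 1530 CPM in Il10KO W12 and Fcgbp 638.6, 522.6 and 911.2 CPM, each below every W6 library (3590 to 4776 CPM and 1853 to 2230 CPM). Their log2 changes were -1.69 ± 0.95 and -1.56 ± 0.76 (edgeR adjusted p = 0.21 and 0.17). Muc2 (-0.88 ± 0.42) and Atoh1 (-0.65 ± 0.36) also lay below W6 in every library. Tff3, with 1902, 1609 and 1186 CPM in W12, Zg16, with 4743, 4149 and 3372 CPM, and Agr2, with 1005, 1206 and 769.1 CPM, lay above every W6 library. These were 7 of 10 members without overlap, beside 65.6% of all genes. The median log2 change at W12 was 1.11 for genes of up to 1000 bases and -0.57 for those over 4000 bases. No member passed the edgeR test at W12, when 1.85% of genes were called (0.491% lower) and 5278 had an unadjusted p under 0.05, and DESeq2 called 0 members and 15.5% of all genes. Without the low-RIN W14 libraries, 4 members were called at W12: Fcgbp (-1.62, edgeR adjusted p = 0.034) and Atoh1 (-0.71, 0.032) lower, and Tff3 and Agr2 higher. In that fit 40.8% of all genes were called. With the length trend removed, Tff3 was at -0.34 ± 0.29, Zg16 at -0.48 ± 0.54 and Agr2 at -0.09 ± 0.37 at W12, so that these 3 short transcripts no longer lay above W6, and no member was called.

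At 14 weeks, Agr2 and Tff3 rose on the count scale. Agr2, the isomerase needed for mucin folding, had 395.8, 6142 and 4786 CPM in Il10KO W14, against 442.1, 608.5 and 583.6 CPM in Il10KO W6. Replicates 2 and 3 lay far above W6 and replicate 1 below it. The log2 change was 2.79 ± 0.64 (edgeR adjusted p = 0.0068). Tff3 had 927.3, 4390 and 3402 CPM in W14, against 828.2, 953.7 and 870.7 CPM in W6, with replicate 1 inside the W6 range, and a log2 change of 1.72 ± 0.43 (edgeR adjusted p = 0.0092). These were 2 of 10 members, both higher, when 33.1% of all genes were called and 24.5% were higher. The median log2 change was -0.78 over the members and -0.06 over all genes. Both genes are among the 3 short members, and genes of up to 1000 bases had a median log2 change of 2.09 in this comparison. With the length trend removed, Agr2 was at 0.76 ± 0.37 (edgeR adjusted p = 0.12) and Tff3 at -0.36 ± 0.29 (0.33), and no member was called, against 25.1% of all genes.

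Clca1, Fcgbp, Muc2, Atoh1 and Bcas1 had their lowest counts of week 14 in replicates 2 and 3, and none of the 5 passed the edgeR test. Clca1 had 181.0 and 221.7 CPM in replicates 2 and 3 of Il10KO W14 but 3007 CPM in replicate 1, against 3590 to 4776 CPM in W6. Its log2 change over the 3 libraries was -1.94 ± 0.96 (edgeR adjusted p = 0.11). Fcgbp had 1596, 181.2 and 220.3 CPM in W14 against 1853 to 2230 CPM in W6, with -1.61 ± 0.76, and Muc2 had 93.7, 53.7 and 57.0 CPM against 109.3 to 182.3 CPM, with -1.02 ± 0.42 (edgeR adjusted p = 0.098 and 0.065). For these 3, every W14 library lay below every W6 library. With Zg16, which was higher, 4 of the 10 members did not overlap between W14 and W6, beside 40.7% of all genes. Atoh1 had 68.5, 20.1 and 30.4 CPM in W14 and 59.5 to 71.8 CPM in W6, and Bcas1 115.0, 18.8 and 37.0 CPM in W14 and 99.3 to 124.3 CPM in W6. In both, replicate 1 fell within the W6 range. Zg16, at 3014, 5916 and 4688 CPM in W14, was above its W6 range of 2695 to 2982 CPM (log2 change 0.70 ± 0.47), and was at -0.84 ± 0.55 with the length trend removed. Spdef had 34.4, 26.6 and 34.5 CPM in W14 and 26.0 to 30.4 CPM in W6 (0.18 ± 0.21 on counts, -0.30 ± 0.28 with the length trend removed). Muc4 had 6.8, 2.4 and 4.8 CPM in W14 and 6.5 to 10.1 CPM in W6 (-0.86 ± 0.53, and 0.47 ± 0.48 with the trend removed).

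Week 14 results rested on which libraries were kept. Without replicate 1, 7 members were called: Agr2 (3.32) and Tff3 (2.14) higher, and Clca1 (-4.44), Fcgbp (-3.34), Bcas1 (-2.03), Atoh1 (-1.35) and Muc2 (-1.32) lower, with edgeR adjusted p up to 0.016 and 69.5% of all genes called. Without replicate 2, only Agr2 was called (2.25, edgeR adjusted p = 0.041), with 11.5% of all genes. With replicates 2 and 3 left out, no member and 0% of all genes were called, Agr2 being at -0.46. RIN was 9.0 in replicate 1 and 6.5 and 5.8 in the others, so RNA quality, the neutrophil markers and the mucus genes moved together, and the part of each was not tested. On the log2(TPM + 1) scale in limma, 6 members were called lower (Muc2, Clca1, Fcgbp, Spdef, Atoh1 and Bcas1) and 0 higher. On that scale 60% of all genes were called, and the median log2 change of all genes was -0.74. There Agr2 was at 0.78 and Tff3 at 0.16. Cage A held the only pair of W14 and W6 mice, both replicate 1, and gave log2 CPM differences of -0.16 for Agr2 and 0.16 for Tff3.

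**Figure D2:**
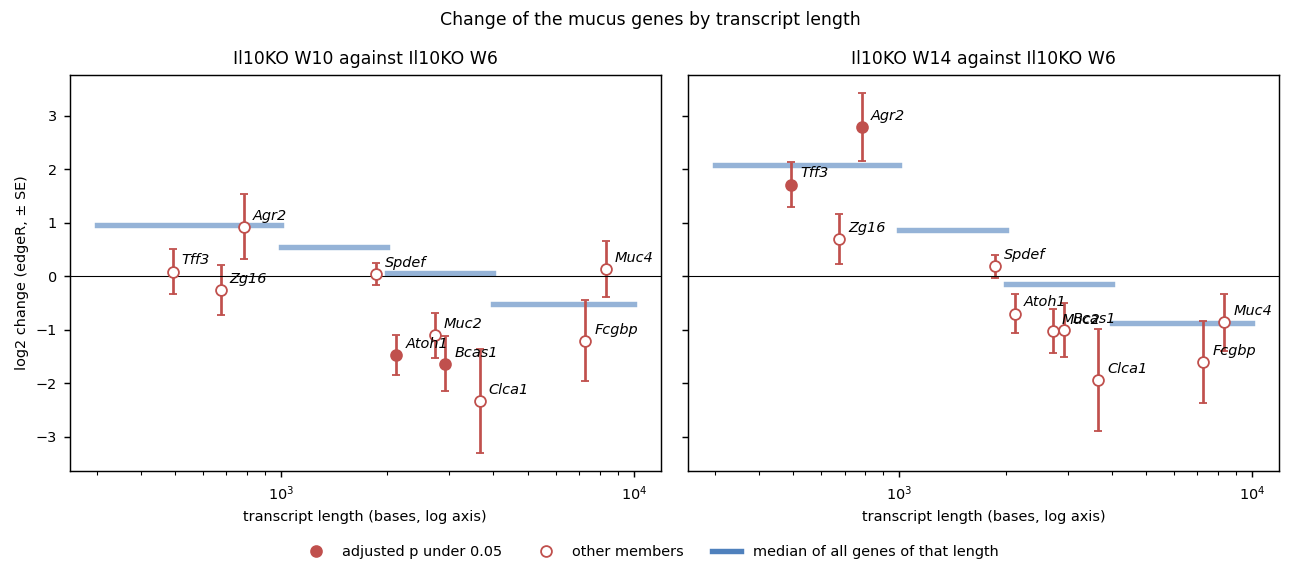
Log2 change (± SE) of each mucus gene against Il10KO W6 by its transcript length (log axis), at week 10 (left) and week 14 (right). Filled points had an edgeR adjusted p under 0.05, and blue lines give the median of all genes in each length class. At week 14 the short members Tff3 (1.72), Zg16 (0.70) and Agr2 (2.79) lie above the 7 longer ones, and the median of all genes is 2.09 for up to 1000 bases and -0.88 for over 4000 bases at week 14. Muc2 is placed at the length of its fragment models, not of its whole message.

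**Figure D3:**
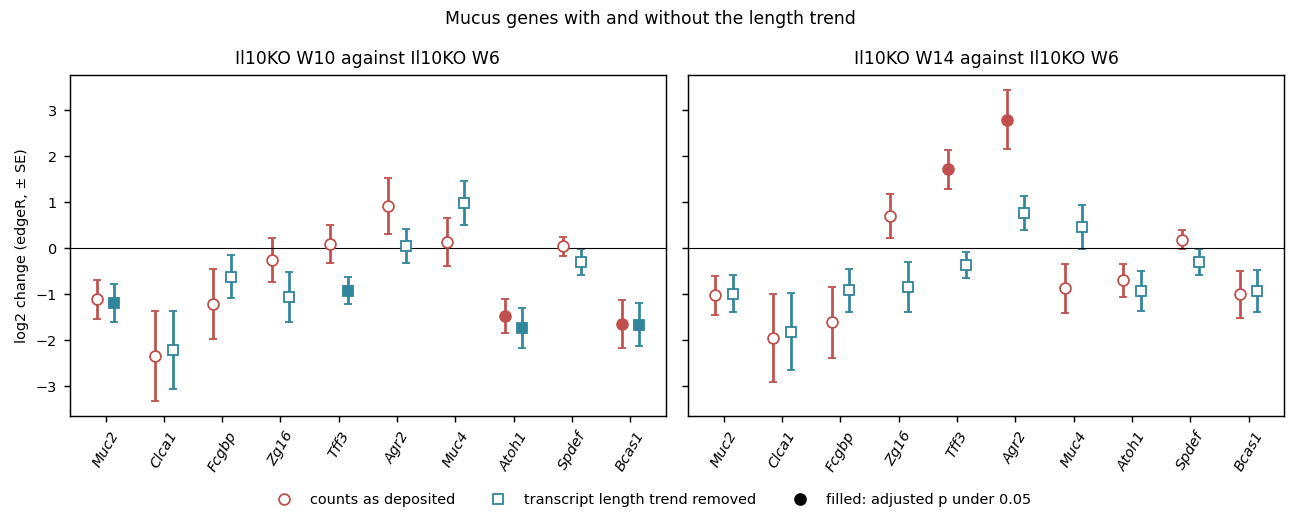
Log2 changes (± SE) of the 10 mucus genes at week 10 (left) and week 14 (right) against Il10KO W6, from counts as deposited (circles) and with each library's length trend removed (squares). Filled symbols had an edgeR adjusted p under 0.05. Atoh1, Bcas1, Muc2 and Clca1 hardly move, Fcgbp moves towards 0, and Agr2 at week 14 drops to 0.76 where it was 2.79. Other members change sign. Tff3 goes from 0.09 to -0.92 at week 10 and from 1.72 to -0.36 at week 14. Spdef goes from 0.04 to -0.30 and from 0.18 to -0.30. At week 14, Zg16 goes from 0.70 to -0.84 and Muc4 from -0.86 to 0.47. Muc2 was fitted at the length of its fragment models, so the trend may not be fully removed from it.

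Over the 5 Il10KO ages together, Tff3 and Agr2 were called (edgeR adjusted p = 0.016 for both), 2 of 10 members beside 27.4% of all genes. Without W14 replicate 1, 7 members and 71.6% of all genes were called. Without replicate 2 or replicate 3 of W14 no member was called, with 7.73% and 10.8% of all genes, and with the length trend removed none was, with 25.7%. Between consecutive ages, no member passed the edgeR test. All genes called were 0.196% for W10 against W8 (0.0798% lower), 0.448% for W12 against W10 and 0.00613% for W14 against W12, and members with an unadjusted p under 0.05 numbered 2 in each. At W10 against W8 they were Atoh1 (-1.12 ± 0.37) and Bcas1 (-1.63 ± 0.52), in each of which every W10 library lay below every W8 library, beside 24.0% of all genes without overlap between these ages. DESeq2 called Bcas1 there, and 5.56% of all genes. At W12 against W10 the same 2 genes were higher, by 0.82 ± 0.37 and 1.13 ± 0.51, again without overlap, beside 23.7% of all genes. At W14 against W12 they were Tff3 (0.89 ± 0.42) and Agr2 (1.93 ± 0.62), and without W14 replicate 1 the edgeR test called 5 members and 47.2% of all genes. No member lay without overlap at W14 against W12, where 8.77% of all genes did.

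The level of lipocalin in single mice was also set against the members within age. It ranged from 102.2 to 135.5 ng/g at W8, from 339.5 to 554.3 ng/g at W10 and from 2044 to 4289 ng/g at W14 in Il10KO mice. At W12 it ranged from 444.2 to 2574 ng/g, the widest spread on the log10 scale used for the fit. In a fit of the Il10KO libraries that set each age its own level, no member's slope on log10 lipocalin passed the edgeR test, and none of the 16182 genes did (0% called, 117 at an unadjusted p under 0.05). The slopes ran from -2.35 ± 2.16 for Clca1 to 0.44 ± 1.20 for Agr2, in log2 units per 10-fold of lipocalin. Without the age factor, which lets age itself in, 5 members and 43.0% of all genes passed.

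Transcript models within the long members gave a further view of the late libraries. The 6 Muc2 models of its 5′ part had 11.9, 26.0 and 16.4 CPM in Il10KO W6, 0.92, 0.48 and 6.86 CPM in W10, 1.36, 2.64 and 4.24 CPM in W12, and 7.51, 0.28 and 0.39 CPM in W14. In WT W6 they had 18.6, 18.3 and 27.9 CPM. Every library of W10, W12 and W14 lay below every W6 library. The 2 models at the Muc2 3′ end had 41.3, 54.2 and 89.2 CPM in W10 and 86.2, 53.4 and 56.6 CPM in W14, against 97.4, 156.3 and 107.2 CPM in W6. The share of Muc2 counts from the 5′ part was thus 0.52% and 0.68% in replicates 2 and 3 of W14 and 8.01% in replicate 1, against 10.9% to 14.3% in W6.

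For Fcgbp, full-length models were set against models at its 3′ end. Its 2 full-length models had 1299, 9.55 and 18.4 CPM in Il10KO W14, against 1772, 1965 and 1675 CPM in Il10KO W6. The 3 models at its 3′ end had 296.3, 171.6 and 201.9 CPM in W14 and 236.5, 265.3 and 178.0 CPM in W6, with overlapping ranges. At W10, full-length models had 137.7, 320.2 and 1569 CPM, and the 3′-end models had 105.8, 281.8 and 222.7 CPM. These models share sequence, and the split of reads between them is the authors' estimate. Full-length models of Muc4 held 0 and 6.6 estimated counts in replicates 2 and 3 of W14, against 162.7 to 253.4 in W6, and its 3′ models 38.0 and 85.4, against 31.3 to 58.6. The shift towards the 3′ end ran with low RIN in those 2 libraries, but W10 replicates 1 and 2, with RIN 8.5 and 8.7, and the W12 libraries, with 8.6 to 8.9, had it too. At W8 the Muc2 5′ part gave 14.95%, 6.04% and 8.73% of Muc2 counts, the lowest being replicate 2, with RIN 8.4. The part of the 3′ shift in the gene-level results was not tested beyond the length-trend fit.

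**Figure D4:**
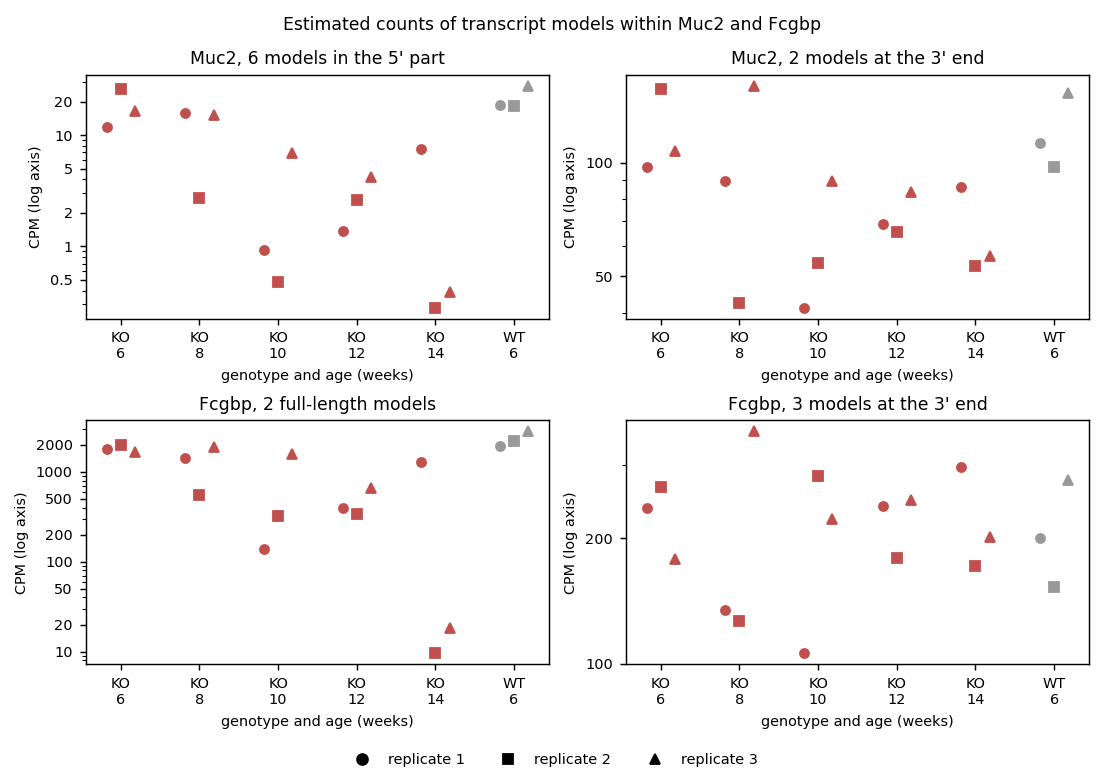
Estimated counts (CPM, log axes) of transcript models in the 5′ part and at the 3′ end of Muc2 (top), and of full-length and 3′-end models of Fcgbp (bottom), in each library by genotype and age in weeks. In replicates 2 and 3 of week 14 the 5′ and full-length models fall to 0.28 and 0.39 CPM for Muc2 and 9.55 and 18.4 CPM for Fcgbp, where the 3′-end models have 53.4 and 56.6 CPM for Muc2 and 171.6 and 201.9 CPM for Fcgbp.

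The make-up of the mucus transcripts by TPM also differed between libraries. In Il10KO W6 colon, Zg16 gave 49.4% to 50.5% of the summed TPM of the 10 genes, Tff3 29.7% to 30.6%, Clca1 7.55% to 9.83% and Agr2 6.34% to 8.39%. The share of Clca1 was 1.70% to 5.56% in W8, 0.53% to 3.53% in W10, 1.38% to 2.58% in W12, and 5.92%, 0.11% and 0.17% in W14, so that every older mouse lay below every W6 mouse. Agr2 made up 39.2% in W10 replicate 1, and 24.7% and 24.5% in W14 replicates 2 and 3. Clca1 per Zg16, as a ratio of TPM, was 15.1% to 19.5% in Il10KO W6, 2.20% to 6.45% in W10, 10.9%, 0.34% and 0.52% in W14, and 12.9% to 16.1% in WT W6. The summed TPM of the members was 5853 in W10 replicate 1, and 11780 to 21300 in the other 14 Il10KO libraries. Clca1 (3655 bases) is longer than Tff3, Zg16 and Agr2 (493 to 784 bases), and TPM leaves in a length trend that differs between libraries. That trend was strongest in W14 replicates 2 and 3 (2.74 and 2.35 for genes of up to 1000 bases), which also had low RIN. Its part in these shares was not tested, and the shares are described with no test.

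**Figure D5:**
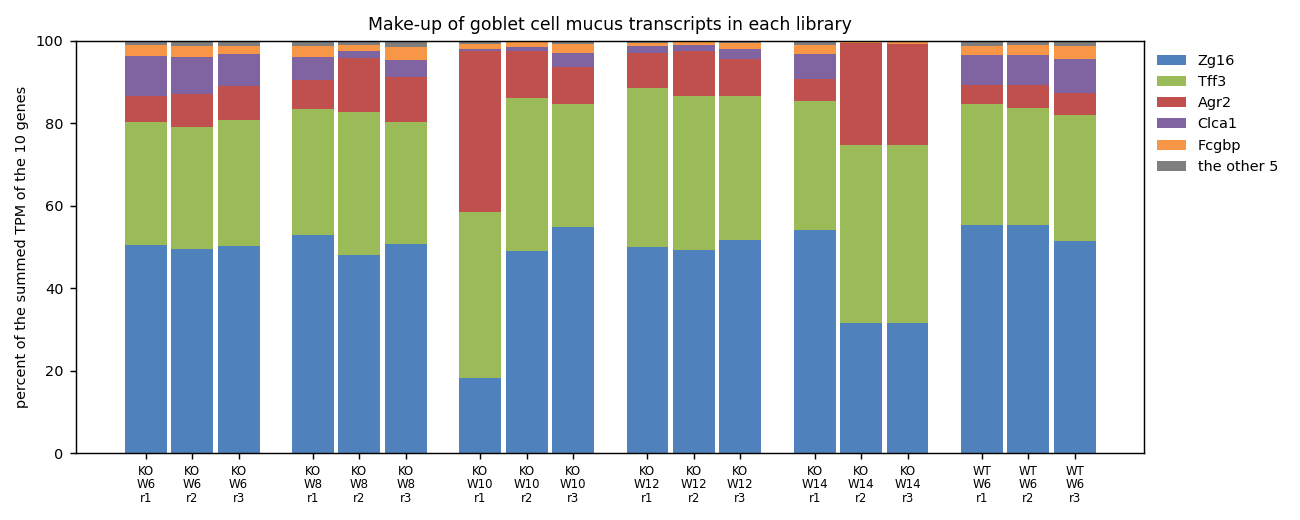
Share of each gene in the summed TPM of the 10 mucus genes, for each library (r, replicate), with Il10KO (KO) ages from left to right and WT last. Clca1 (purple) shrinks at every age after week 6, and Agr2 (red) widens to 39.2% in week 10 replicate 1 and to 24.7% and 24.5% in week 14 replicates 2 and 3. The transcript length trend is not removed here.

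The members were also set against epithelium as a whole. The summed level of 16 pan-epithelial markers was 13900 to 18600 CPM in Il10KO W10 and 16300 to 19700 CPM in W14, against 14700 to 17400 CPM in W6. Of these markers, 2 were called higher at W10 and 3 at W14, beside 14.6% and 24.5% of all genes, and 0 lower. The length trend was not removed from this sum. Scaling by this sum left the same members called: Atoh1 and Bcas1 at W10, Tff3 and Agr2 at W14 and across ages, and none elsewhere. Clca1 counts equalled 0.77%, 4.09% and 9.69% of the epithelial sum in W10, and 18.5%, 1.03% and 1.13% in W14, against 20.7% to 32.2% in W6. Atoh1 counts equalled 0.10% to 0.17% of it in W10, against 0.34% to 0.42% in W6.

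Other goblet cell genes were read from lists. Of 18 genes of granules and their release tested, 5 were lower and 0 higher in Il10KO W10 than in W6, beside 9.48% and 14.6% of all genes. Among them were Scin, a gelsolin-family actin regulator, with 25.1, 53.5 and 50.6 CPM in W10 against 190.2 to 208.1 CPM in W6 (log2 change -2.20 ± 0.50, edgeR adjusted p = 0.012), and Best2, a bicarbonate channel, with 3.84, 33.2 and 46.7 CPM against 98.3 to 104.6 CPM (-1.87 ± 0.64, 0.047). Hepacam2 (-1.16 ± 0.40) and Fer1l6 (-2.26 ± 0.71), of the ferlin family, were the others named by size. With the length trend removed 6 were lower, and without W10 replicate 1 none was. At W14, 3 were higher and 1 lower, beside 24.5% and 8.56% of all genes. Vamp8, a vesicle SNARE whose transcript has 836 bases, was higher by 2.18 ± 0.48, and by 0.36 ± 0.17 with the length trend removed. Slc12a8 was lower by 0.96 at W14 and by 1.04 at W12 on the log2 scale.

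Other regulators of the secretory lineage also changed at 10 weeks. Of 16 tested, 4 were lower and 1 higher in Il10KO W10, beside 9.48% and 14.6% of all genes. Foxa2, a forkhead factor, had 8.7, 18.6 and 22.7 CPM in W10 against 44.7 to 55.5 CPM in W6 (log2 change -1.54 ± 0.46, edgeR adjusted p = 0.030). Hes1, the Notch target that represses Atoh1, was also lower (-0.83 ± 0.22, 0.019), as was Cbfa2t3, a corepressor (-1.65 ± 0.56, 0.046). Xbp1, the transcription factor of the unfolded protein response, was higher, with 682.0, 550.4 and 467.2 CPM in W10 against 208.5 to 258.1 CPM in W6 (1.33 ± 0.33, 0.016). It was higher at W14 too (1.40 ± 0.33, edgeR adjusted p = 0.0077), and was called with the length trend removed at both ages. Without W10 replicate 1, no regulator was called at W10.

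Glycosylation enzymes moved both ways. Of 26 tested in Il10KO W10, 5 were higher and 5 lower, beside 14.6% and 9.48% of all genes. Fut2, which adds the terminal fucose of mucin glycans, had 660.8, 503.6 and 758.5 CPM in W10 against 73.0 to 91.1 CPM in W6 (log2 change 3.01 ± 0.30, edgeR adjusted p = 0.00036). All 3 W10 libraries lay far above W6, replicate 1 being no exception. Galnt3, which starts O-glycans, was higher (1.43 ± 0.38) and its relative Galnt6 lower (-1.28 ± 0.40). Chst5, a sulfotransferase, was lower by the largest log2 change of the list (-4.71 ± 1.33), but from a very low level, with 0, 0 and 0.03 CPM in W10 against 0.22 to 0.55 CPM in W6. Of the 6 other mucins tested, Muc3a was lower at W10 (-1.57 ± 0.45), although reads may be split between it and Muc3. At W14, 4 enzymes were higher and 2 lower, beside 24.5% and 8.56% of all genes. Fut2 was among the higher ones, with 115.3, 271.8 and 287.8 CPM in W14.

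Genes listed as other secreted goblet products moved in both directions. Which cells of the tissue made these transcripts was not tested. Of 15 tested, 4 were higher and 5 lower at W10, beside 14.6% and 9.48% of all genes, and 7 were higher and 1 lower at W14, beside 24.5% and 8.56%. Clca4b, of the same family as Clca1, had 158.3, 1345 and 1580 CPM in Il10KO W8 and 4490, 1799 and 2862 CPM in W10, against 3.9, 4.8 and 9.6 CPM in W6. Its log2 changes were 7.40 ± 1.11 at W8 (edgeR adjusted p = 0.025), where it was 1 of the 11 genes called, and 8.97 ± 1.18 at W10 (0.0010). Retnlb, an antibacterial resistin-like protein of goblet cells, had 114.8, 27.0 and 7.4 CPM in W10 and 2.7, 203.1 and 288.8 CPM in W14, against 0.3 to 1.8 CPM in W6. Agr3, a relative of Agr2, was lower at W10, with 0, 0.17 and 0.06 CPM against 0.52, 1.33 and 1.19 CPM in W6 (log2 change -3.63 ± 0.85, edgeR adjusted p = 0.013). Ang4, an antibacterial ribonuclease, was lower too, with 0.15, 0.07 and 0.09 CPM in W10 against 2.36, 0.22 and 0.31 CPM in W6 (-3.18 ± 1.12, 0.048). Both levels are very low. Spink4, a protease inhibitor of goblet cells whose transcript has 397 bases, was higher at W14 by 4.18 ± 0.77, and by 1.58 ± 0.42 with the length trend removed.

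Cytokines known to act on goblet cells, and other cells of the tissue, changed in the same libraries. Of 17 cytokine and receptor genes tested, 8 were higher at W10 and 9 at W14, with 0 and 1 lower. Of all genes, 14.6% were called higher at W10 and 24.5% at W14, and 9.48% and 8.56% lower. Il17a, a product of T helper cells, had 4.27, 0.92 and 0.12 CPM in W10 and 0.08, 43.1 and 13.9 CPM in W14, and was at 0 in every W6 library. Ifng, which encodes interferon gamma, had 6.15, 15.2 and 5.06 CPM in W10 and 0.11, 12.3 and 9.97 CPM in W14, against 0 to 0.06 CPM in W6. Tnf had 28.9, 31.7 and 18.6 CPM in W10 and 1.5, 26.4 and 47.6 CPM in W14, against 0.3 to 0.4 CPM in W6. Il22, which acts on epithelium, had 4.19, 3.14 and 0.30 CPM in W10 and 0, 14.4 and 3.79 CPM in W14, and was at 0 to 0.06 CPM in W6. Neutrophil markers rose in 12 of 14 tested at W10 and 13 of 14 at W14, beside 14.6% and 24.5% of all genes. Their summed level was 1180 to 6350 CPM in W10 and 564 to 17200 CPM in W14, against 295 to 329 CPM in W6, where S100a8 averaged 0.15 ± 0.05 CPM and Ly6g and Cd177 gave most of the sum. Fibroblast and matrix markers fell in 9 of 11 tested at W10 and in 7 of 11 at W14, beside 9.48% and 8.56% of all genes. Their sums were 1000 to 1870 CPM at W10, against 3200 to 4740 CPM in W6. Squamous markers, which would mark anal tissue, summed to at most 19.4 CPM in any library. The part of these cell types in the changes of the mucus genes was not tested.

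For single members, the genes of most similar pattern over the 18 libraries were found by Pearson's r of log2 CPM among genes with a mean log2 CPM of at least 1. They were Muc3, Pcsk1 and Sgms2 for Muc2 (r = 0.91, 0.90 and 0.90), Pxylp1, Nxpe5 and Gsdmc4 for Atoh1 (0.96, 0.95 and 0.95) and Mnx1, Klhdc7a and Xylt2 for Bcas1 (0.97 for each). For the short Agr2 they were Apip, Tmem254c and Prdx4 (0.98 for each), and for the long Fcgbp they were Parva, Elp2 and Ptprk (0.986, 0.985 and 0.985). These values share the same libraries and their length trend, so they are descriptions with no test.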

How the data were processed

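RNA of 0.5 cm pieces of distal colon had been sequenced with paired reads, per the labels' protocols, and quantified with kallisto on mm10 after FastQC, per the submitters' processing notes. The authors' deposited gene table holds estimated counts (expected counts, rounded) for 16321 genes, the lowest gene total being 50, and a second deposited table holds TPM. Transcript tables of each library give estimated counts, TPM, lengths and effective lengths, per the file headers. GENCODE vM21 positions matched 97.28% of the transcripts. The annotation release and strand setting used are not given in the sources used here, so overlapping and near-identical genes stay uncertain. Gene counts of the members equalled their transcript sums within 2 counts.

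Counts were tested in edgeR 4.0.16 (R 4.3.3): TMM, filterByExpr (16300 genes), 1 fit of 6 group means over 18 libraries, quasi-likelihood F-tests, two-sided, Benjamini-Hochberg over all genes, threshold 0.05. The standard error is the absolute log2 change of a fit with no prior count, not the log2 change printed, divided by the root of F. CPM are TMM-scaled. The lipocalin slope was fitted in Il10KO libraries with age as a factor. Alternatives used DESeq2 1.42.0, limma 3.58.1 on log2(TPM + 1) and log2(TPM + 0.1), other scalings, RIN, cage or replicate number as terms, and libraries left out. Removal of a library-specific spline of log2 CPM on transcript length, voom with a weight for each group and leaving out week 14 were chosen after seeing the data. The edgeR steps were tested on simulated data. The members, lists, tests and naming rule (all 10 members, and for each list and comparison up to 4 called genes of largest absolute log2 change, not all of which are given) were chosen with earlier results of these data known. Replicates are separate mice, per the labels.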

Additional observations from a re-analysis of the deposited data

How the results depend on the processing

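The number of members called depended on the processing, and the cause was not tested except where an alternative leaves out libraries. The percent of all genes called in the same fit follows each count in parentheses. For Il10KO W10 against W6 (2 members, 24.0%), it was 1 with library size scaling (14.2%), 4 in DESeq2 (36.8%), 4 and 1 in limma on log2(TPM + 1) and log2(TPM + 0.1) (19.9% and 12.4%), 5 with RIN as a covariate (46.5%), 0 with cage as a factor (3.26%), 4 with only the compared groups (40.1%), 5 without the low-RIN libraries (51.4%) or all of week 14 (51.6%), 4 with the length trend removed (30.0%), 5 with voom weights (43.1%), and 0 to 5 leaving out 1 library (4.70% to 32.1%). For W12 against W6 (0, 1.85%), it was 2 with RIN (35.3%), 8 with only the compared groups (59%), 4 without the low-RIN libraries (40.8%) or week 14 (41.3%) and 7 with voom weights (61.9%). For W14 against W6 (2, 33.1%), it was 1 with library size scaling (11.9%), 6 with either TPM scale (60% and 61.8%), 0 with RIN, cage, only the compared groups or no low-RIN libraries (0% each), 0 with the length trend removed (25.1%) or voom weights (8.45%), and 1 to 7 leaving out 1 library (11.5% to 69.5%). For W10 against W8 (0, 0.196%), it was 1 in DESeq2 (5.56%) and 2 with RIN (11.8%), without the low-RIN libraries (21.6%) or without week 14 (21.6%). For W14 against W12 (0), leaving out 1 library gave 0 to 5 (0% to 47.2%). Across ages (2, 27.4%), it was 1 with library size scaling (8.90%), 4 in DESeq2 (50.8%), 0 with cage (0.00613%) or the length trend removed (25.7%), 5 without the low-RIN libraries (42.8%), 7 with voom weights (60%) and 0 to 7 leaving out 1 library (7.73% to 71.6%). The lipocalin slope (0, 0%) gave 5 without the age factor (43.0%). The count was unchanged in the alternatives run for Il10KO W6 against WT W6, W8 against W6 and W12 against W10.

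Replicate numbers were not treated as pairs. Correlations of same-numbered libraries' deviations had medians of -0.061, 0.132 and 0.036 for numbers 1 to 3. They ran from -0.662 to 0.539, from -0.36 to 0.575 and from -0.686 to 0.348. With the replicate number as a block, 1 member (Atoh1) was called at W10 (18.7% of all genes).

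Of 555 alternative values for 27 member changes, 440 kept direction and side of the threshold, 29 lost the call, 52 gained it and 34 changed sign, all 34 against W6 as follows. With library size scaling (all-gene median -0.255 at W10 and -0.563 at W14), values were -0.173 for Tff3, -0.219 for Spdef and -0.12 for Muc4 at W10, and -0.309 for Spdef at W14. On log2(TPM + 1) and log2(TPM + 0.1), they were -0.549 and -0.549 for Tff3, -0.601 and -0.63 for Spdef and -0.084 and -0.122 for Muc4 at W10, and -0.615 and -0.615 for Zg16 and -1.09 and -1.162 for Spdef at W14. With the length trend removed, they were -0.92 for Tff3 and -0.299 for Spdef at W10, and -0.361 for Tff3, -0.835 for Zg16, -0.301 for Spdef and 0.466 for Muc4 at W14. Cage gave -0.317 for Tff3 and the block -0.021 for Muc4 at W10. Without the low-RIN libraries, values were -0.018 for Spdef at W10, and -0.463 for Agr2, 0.084 for Atoh1 and 0.008 for Bcas1 at W14, and without week 14, -0.016 for Spdef at W10. Leaving out 1 library at a time at W10, the changes ran from -0.268 to 0.328 for Tff3, -0.651 to 0.221 for Zg16, -0.145 to 0.129 for Spdef and -0.102 to 0.503 for Muc4.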
